A study of Mus musculus with 6 samples.

Results

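The variable segments of the immunoglobulin loci were measured in RNA of mouse bone marrow cells sorted as haematopoietic stem cells (HSCs) with a high or a low TMRM signal. Members were the table's genes whose symbol begins with Ighv (heavy chain), Igkv (kappa light chain) or Iglv (lambda light chain) and that had at least 20 estimated counts summed over the 6 libraries. That left 82 of the 213 variable segments in the table, 39 heavy, 40 kappa and 3 lambda, among 28786 genes. The members were chosen by this summed count, so their abundance is a description, and the difference between the groups was not part of the rule. The minimum could still be reached through 1 group alone. Of the members 28 had no count in the libraries of low signal and 1 had none in those of high signal. Counts, medians and correlations over members describe segments so chosen. Just inside the minimum were Ighv1-62-3 (21.2 counts) and Ighv1-42 (21.3), and just outside it were Ighv1-63 (18.9) and Ighv6-3 (18.0).

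Every library came from wild type C57BL/6 mice of 6 to 8 weeks, and 1500 cells were sorted for each from a gate without lineage markers and CD48 and with Sca-1, c-Kit and CD150. TMRM is a dye that mitochondria take up according to their membrane potential. There were 3 TMRM-High and 3 TMRM-Low libraries, with totals between 14270069 and 22070594 estimated counts. No label says whether different mice stand behind the libraries of a group. The p-values therefore speak only to variation among these 6 libraries, which may be technical. Of 12 HSC marker genes, all had counts in both groups. Their summed level was 601 to 605 CPM (counts over the scaled library total, the usual sequencing-depth unit) in TMRM-High and 942 to 1020 CPM in TMRM-Low libraries, with 5 lower in TMRM-High and none higher. Their part in the results below was not tested.

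A B lymphocyte assembles each immunoglobulin chain gene by joining 1 variable (V) segment to a joining (J) segment, with a diversity segment between them in the heavy chain. The heavy chain is joined first, in pro-B cells, and kappa or lambda later, so reads of many V segments usually come from many B lineage cells, whereas reads of 1 segment can come from few. Segments of related sequence form numbered families, and unjoined segments can be transcribed at a low level too. In bulk RNA, fewer cells of a type and less RNA per cell cannot be told apart.

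Families held segments that moved in opposite directions, although their sequences are close. The stretches below are the 90 coding bases in which each pair differed most, from GENCODE M21 transcripts on GRCm38, read 5′ to 3′ on the gene's own strand, which is the minus strand for all of them. Capitals mark the bases at which the members of a pair differ. They are shown because the calls described below depend on telling such segments apart. The first pair is Igkv12-46 (chr6:69764523-69765022), higher in TMRM-High, and Igkv12-44 (chr6:69814631-69815154), lower. Igkv4-57 (chr6:69575975-69576500) and Igkv4-72 (chr6:69226854-69227433), and Igkv6-13 (chr6:70457501-70458036) and Igkv6-15 (chr6:70406469-70406992), likewise had opposite calls, the first of each pair being higher. Iglv1 (chr16:19085017-19085500) and Iglv2 (chr16:19260401-19260859) were both higher.
Igkv12-46: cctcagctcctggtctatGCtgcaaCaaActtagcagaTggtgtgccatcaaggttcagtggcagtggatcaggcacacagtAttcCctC
Igkv12-44: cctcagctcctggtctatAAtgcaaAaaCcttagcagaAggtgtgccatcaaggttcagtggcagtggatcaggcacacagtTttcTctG
Igkv4-57: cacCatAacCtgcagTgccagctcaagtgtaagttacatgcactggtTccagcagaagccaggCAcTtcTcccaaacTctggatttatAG
Igkv4-72: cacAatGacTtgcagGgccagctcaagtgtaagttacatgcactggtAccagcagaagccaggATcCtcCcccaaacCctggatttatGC
Igkv6-13: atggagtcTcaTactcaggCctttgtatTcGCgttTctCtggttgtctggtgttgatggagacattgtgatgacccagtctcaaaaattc
Igkv6-15: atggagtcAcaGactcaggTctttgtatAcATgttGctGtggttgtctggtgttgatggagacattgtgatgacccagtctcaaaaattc
Iglv1: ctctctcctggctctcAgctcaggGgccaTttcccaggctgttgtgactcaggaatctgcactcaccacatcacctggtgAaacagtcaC
Iglv2: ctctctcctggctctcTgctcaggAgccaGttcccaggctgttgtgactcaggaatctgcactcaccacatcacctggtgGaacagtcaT
Over their aligned coding bases these pairs were 95.4%, 93.8%, 93.7% and 96.9% identical, in the order shown.

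How far a segment can be told from others was measured as the share of its transcript's 31-base words found in no other gene's GENCODE M21 transcripts, on either strand. The median over the 82 members was 51.8%, with a range of 1.9% (Ighv1-72) to 100%, and 39 members were under 50%. Igkv15-103, Igkv19-93, Igkv5-48 and Iglv3 shared no such word with another gene. Ighv1-71 shared 97.6% of its words with Ighv1-62-2, so its counts could belong to either. Igkv12-46 shared 31.4% of its words with Igkv12-44, and Iglv2 shared 39.6% with Iglv1. Because the authors' quantification divides reads between similar transcripts, values of single segments are uncertain, and sums by family or locus are given beside them.

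In these segments the 3 TMRM-High libraries were much more alike than the 3 TMRM-Low libraries. Among members with at least 20 counts in the group, chi-square per degree of freedom was 2.26 over 62 members in TMRM-High and 16.2 over 23 members in TMRM-Low libraries; a value near 1 is what counting error gives. Over all genes the values were 5.69 and 48.5. Spearman's rho of CPM across the 82 members was 0.957 to 0.963 within TMRM-High and 0.456 to 0.673 within TMRM-Low. Between groups it ran from -0.314 to -0.033. These values describe members that share libraries and are no test. Of the 82 members, 48 had at least 10 counts in all 3 TMRM-High libraries and 7 in only 1 of them. In TMRM-Low libraries 10 members reached 10 counts in all 3 and 17 in only 1. Whether the TMRM-High libraries share material was not tested. A test that counts them as separate replicates rests on their being so, and results are therefore given also with them summed into 1 library.

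**Figure D1:**
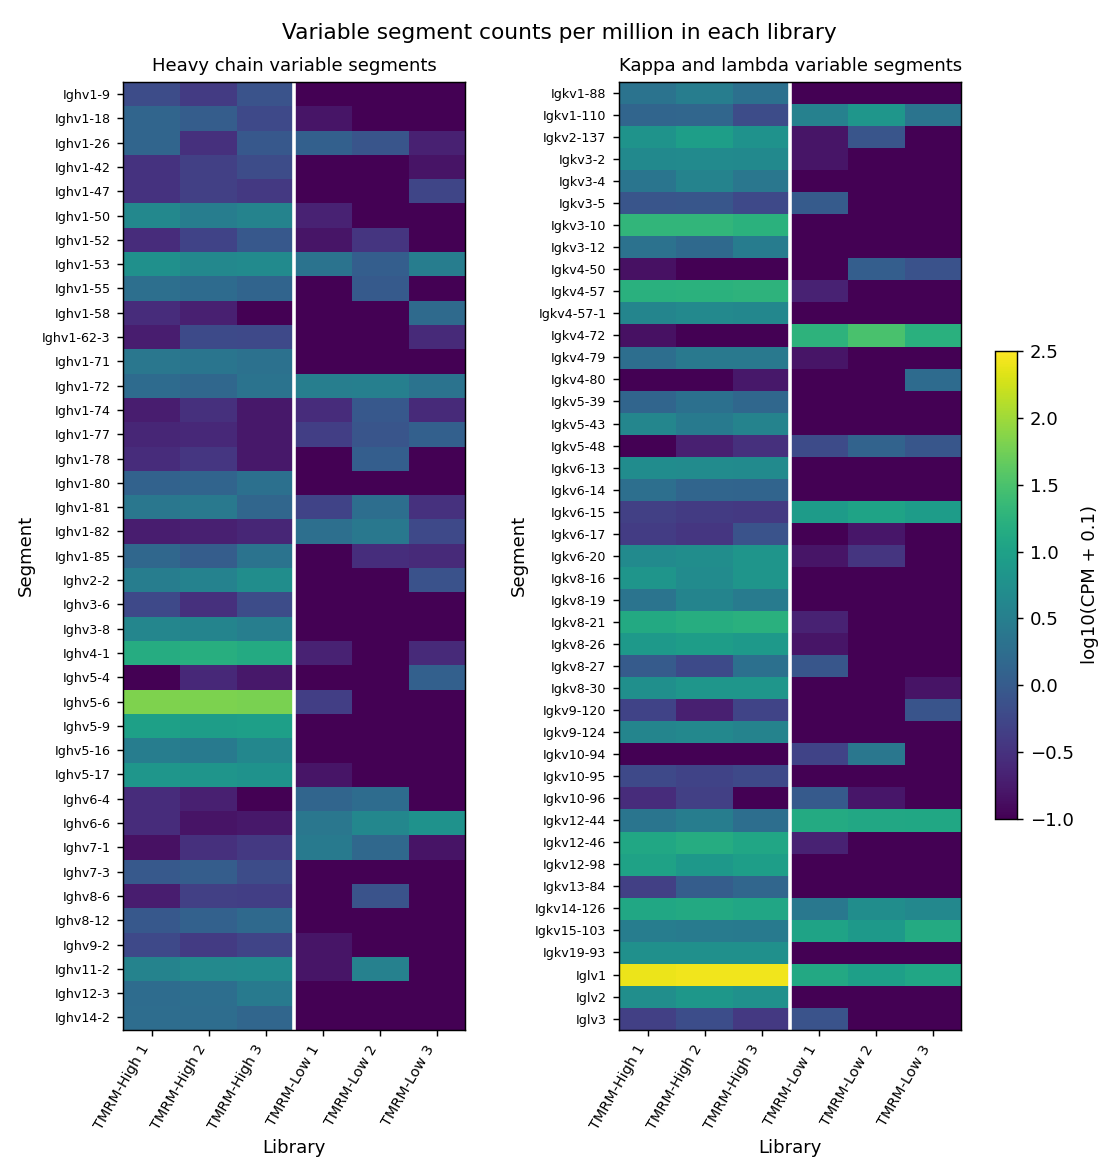
Level of each of the 82 variable segments (rows) in each of the 6 libraries (columns), as log10(CPM + 0.1) on the colour scale, with the white line between TMRM-High and TMRM-Low libraries. Rows look alike across the 3 TMRM-High libraries, and 10 members had at least 10 counts in all 3 TMRM-Low libraries.

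Reads of all 3 loci were more abundant in TMRM-High libraries, most of all lambda. Heavy members summed to 142, 138 and 139 CPM in the TMRM-High and 16.1, 24.2 and 17.4 CPM in the TMRM-Low libraries. Kappa members summed to 165, 176 and 169.6 CPM against 60.6, 79.4 and 61.2 CPM. Lambda members summed to 256, 272 and 268 CPM against 13.4, 9.42 and 11.6 CPM. The groups did not overlap in any locus, and the ratios of the mean sums were 7.28 for heavy, 2.54 for kappa and 23.1 for lambda. A sum over members is a description and was given no test. The make-up differed too. Lambda gave 45.4% to 46.4% of member counts in TMRM-High and 8.34% to 14.8% in TMRM-Low libraries, while kappa gave 29.3% to 30% and 67.2% to 70.3%.

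**Figure D2:**
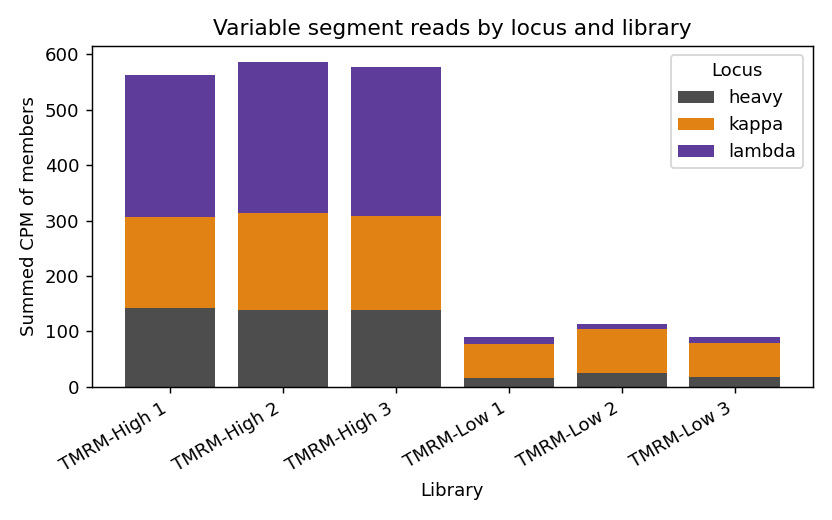
Summed CPM of the heavy, kappa and lambda members (stacked bars) in each library. The TMRM-High libraries reach 563 to 586 CPM with lambda as the largest part, and the TMRM-Low libraries 90.1 to 113 CPM with kappa as the largest part.

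Over all 82 members, every TMRM-High library was above every TMRM-Low library for 52, the reverse held for 9, and 21 overlapped. Among all genes with at least 20 counts these shares were 17.9% and 15.4%. No TMRM-Low library had a count for 28 members and no TMRM-High library for 1, Igkv10-94, against 0.960% and 0.550% of those genes. The 9 segments that were higher in every TMRM-Low library were Ighv1-77, Ighv1-82, Ighv6-6, Igkv1-110, Igkv12-44, Igkv15-103, Igkv4-72, Igkv5-48 and Igkv6-15.

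edgeR's quasi-likelihood test was fitted to all genes, and genes with too few counts were left out first. Of the members 55 entered the test. Called at an adjusted p (Benjamini-Hochberg) below 0.05 were 39 higher in TMRM-High, where 5.84% of all tested genes were so called, and 5 lower, where 5.12% were. By locus, 13 heavy, 24 kappa and 2 lambda members were higher, and 1 heavy and 4 kappa members were lower. The 27 members left out had few counts or were present in some libraries only: 15 of them reached 10 counts in 1 or 2 TMRM-Low libraries and in no TMRM-High library. The filter asks for about 10 counts in 3 libraries, so a member can pass it through the TMRM-High libraries alone, and a member of 1 or 2 TMRM-Low libraries cannot pass through those. Of the members left out, 8 were nevertheless higher in every TMRM-High library and 3 in every TMRM-Low library. With no filter all 82 were tested, and 41 were called higher (3.53% of genes) and 5 lower (2.90%). In that fit the log2 fold changes (TMRM-High minus TMRM-Low) of the 82 had a median of 4.93, or 3.94 with groups without a count set to a floor of 3 counts over the group, beside 0.01 for all genes. The median was 3.59 for heavy, 7.22 for kappa and 4.53 for lambda members, or 2.82, 4.93 and 4.53 with that floor.

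The calls depended on the TMRM-High replicates. With the 3 TMRM-High libraries summed, Iglv1 and Ighv5-6 remained called higher (0.525% of genes) and Igkv4-72 lower (0.223%). In that fit only the TMRM-Low libraries supply the spread. Where both groups had counts, the fitted folds of named members that lost their call there were close to before. The log2 fold change was 7.25 against 7.16 for Ighv4-1 and -4.78 against -4.82 for Igkv6-15. For Igkv3-10, without a TMRM-Low count, it was 12.03 against 11.41. A fold against 0 counts depends on how the fit treats them, so this rise says nothing about the difference. Without TMRM-High replicate 1, 2 or 3 the members called higher numbered 24, 22 or 21, where 1.82%, 1.92% or 1.77% of all genes were so called, and those called lower 3, 3 or 2, where 1.41%, 1.35% or 1.28% were. Without TMRM-Low replicate 1, 2 or 3 there were 44, 45 or 42 higher (8.67%, 8.64% or 9.99% of genes) and 7, 5 or 9 lower (6.97%, 7.54% or 8.39%). Calls over all genes thus fell and rose in the same fits. DESeq2 called 41 members higher (9.69% of genes) and 6 lower (9.79%), and edgeR with the replicate number as a block called 36 higher (4.26%) and 4 lower (3.29%).

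**Figure D3:**
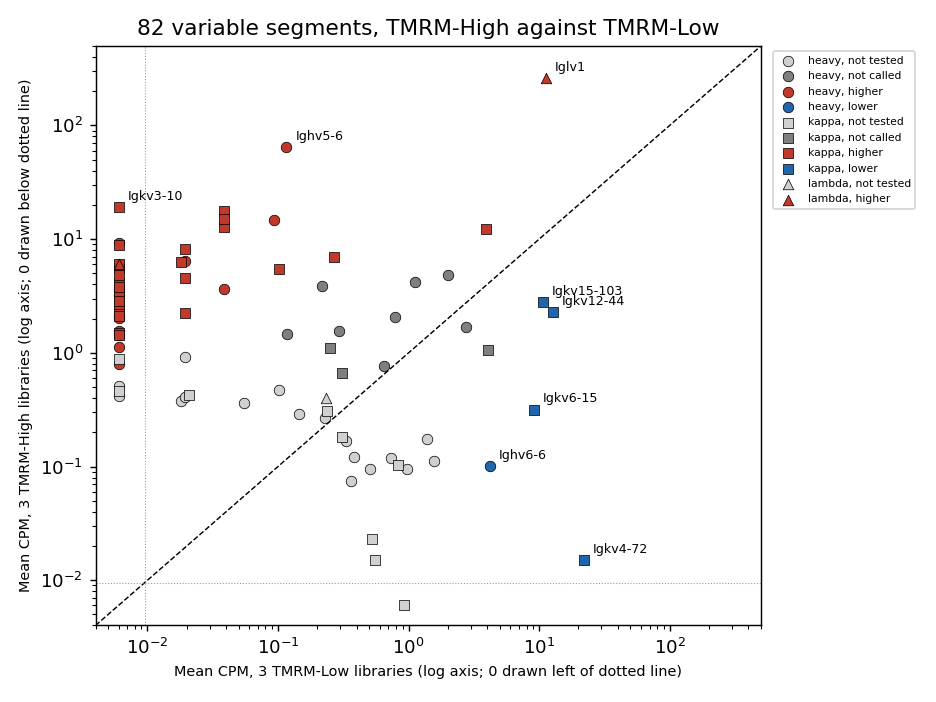
Mean CPM of each segment in the 3 TMRM-Low (x) and 3 TMRM-High libraries (y), both on log axes with 0 drawn beyond the dotted lines. Shapes give the locus and colours the edgeR call. The 39 segments called higher lie above the dashed line of equal level and the 5 called lower lie below it.

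Iglv1, the lambda segment most used by mouse B cells, had the highest level of all members in TMRM-High libraries. It was at 250.1, 264 and 262 CPM in TMRM-High and at 12.7, 9.42 and 11.6 CPM in TMRM-Low libraries. The groups lay far apart and each was even, which gave a log2 fold change of 4.52 (standard error, SE, 0.129, edgeR adjusted p = 2.1e-06). It made up 94.8% to 100% of lambda member counts in every library. Per length of transcript its mean level was 662 CPM per kb in TMRM-High and 28.8 CPM per kb in TMRM-Low libraries, and in TMRM-Low Igkv4-72 (54.7 CPM per kb) and Igkv12-44 (31.8 CPM per kb) had higher means. Iglv2 was at 5.26, 7.03 and 5.83 CPM in TMRM-High and at 0 in every TMRM-Low library, at least 104-fold higher against 3 counts over the group. In TMRM-Low its 0 of 596 lambda counts allow a share of up to 0.503%, and in TMRM-High libraries its share was 2.06% to 2.59%. That limit pools the 3 TMRM-Low libraries and covers counting error only. The spread among TMRM-Low libraries exceeded counting error, and a difference in share was not tested. Iglv3 was not tested, with 8, 11 and 4 counts in TMRM-High and 12, 0 and 0 in TMRM-Low libraries, so its groups overlapped.

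Heavy chain reads in TMRM-High libraries came mainly from the Ighv5 family, and within it from 1 segment. Ighv5-6 (chr12:113625506-113625956) was at 66.2, 65.1 and 62.6 CPM in TMRM-High and at 0.347, 0 and 0 CPM in TMRM-Low libraries. Its TMRM-Low value rested on 6 counts of the first library (edgeR adjusted p = 0.00017). The ratio of group counts, each over its summed scaled library sizes, was 559 with a 95% exact binomial interval of 257 to 1524. Ratios given for single segments below are of this kind. Ighv5-6 alone gave 44.9% to 47.1% of heavy member counts in TMRM-High libraries. The 5 members of its family summed to 81.9 to 85.7 CPM in TMRM-High and 0 to 1.09 CPM in TMRM-Low libraries, and 4 were called higher. Ighv5-9 (9.75, 8.67 and 9.37 CPM) went without a count in TMRM-Low and was at least 159.8-fold higher. Ighv5-17 had 364 counts against 1, a ratio of 336 (60 to 13318). Ighv5-4, the fifth, went the other way in level and was not tested: it had 0, 3 and 1 counts in TMRM-High and 0, 0 and 20 in TMRM-Low libraries.

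Of the other heavy families, Ighv4-1 was at 14.8, 15.7 and 13.7 CPM against 0.116, 0 and 0.163 CPM, and edgeR gave an adjusted p of 0.00073 (log2 fold change 7.16, SE 0.686). Ighv3-8 was at 3.90, 3.69 and 3.06 CPM against 0 in each TMRM-Low library, which is at least 62.2-fold higher. Both were even across the TMRM-High libraries. The largest family, Ighv1, with 20 members, was less lopsided. Its sum was 21 to 24.9 CPM in TMRM-High and 9.20 to 13.0 CPM in TMRM-Low libraries, which was 15.2% to 17.5% of heavy counts in the former and 53.7% to 57.0% in the latter. Of its 9 tested members 3 were higher and none was lower. Ighv1-50 was higher at 4.26, 2.98 and 3.61 against 0.116, 0 and 0 CPM, and no longer passed when any 1 of the TMRM-High libraries was left out (log2 fold changes 6.17 to 6.43, against 6.31). Ighv1-53 was at 5.62, 4.21 and 4.58 CPM against 2.08, 0.999 and 2.94 CPM and Ighv1-72 at 1.59, 1.38 and 2.08 against 3.07, 3.18 and 2.07 CPM. Neither passed the test (edgeR adjusted p = 0.195 and 0.434). They were the 2 heavy segments with at least 10 counts in all 6 libraries.

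Ighv6-6 was the 1 heavy member called lower. It was at 0.181, 0.0513 and 0.0694 CPM in TMRM-High and at 2.37, 4.12 and 6.04 CPM in TMRM-Low libraries, uneven among the latter but above every TMRM-High library in each. Its log2 fold change was -5.24 (SE 0.778, edgeR adjusted p = 0.00564), and the call was lost without TMRM-High replicate 2 (-4.93) or 3 (-5.07). Several heavy segments were seen in a single TMRM-Low library. Ighv1-58 had 28 counts in TMRM-Low replicate 3 and 0 in the other two, and Ighv1-78 had 16 in replicate 2 and 0 in the others. Ighv11-2, a segment known from B-1 cells, was at 3.31 CPM in TMRM-Low replicate 2 and at 0.0579 and 0 CPM in replicates 1 and 3, against 3.58, 4.41 and 4.65 CPM in TMRM-High libraries. It did not pass the test (adjusted p = 0.465).

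Kappa reads were spread over more segments in TMRM-High than in TMRM-Low libraries. The effective number of kappa segments (1 over the sum of squared shares) was 16.9, 17.2 and 17.5 in TMRM-High and 5.10, 4.59 and 5.25 in TMRM-Low libraries. For heavy segments the order was the reverse, 4.16, 4.06 and 4.45 against 7.90, 10.3 and 5.50. These numbers were not tested, and the groups did not overlap in either locus.

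Among kappa members that were higher, Igkv3-10 was at 20, 20.1 and 16.9 CPM against 0 throughout TMRM-Low, which is at least 331-fold higher. Of the 31-base words of Igkv3-10, 28.6% were its own and 55.3% were shared with Igkv3-5, which had 16 counts in TMRM-Low replicate 1. Igkv4-57 was at 16.6, 17.3 and 18.5 CPM against 0.116, 0 and 0 CPM, a ratio of 448 (124 to 3709), and 29.5% of its words were its own. The TMRM-Low counts of Ighv5-6, Ighv5-17, Ighv1-50, Igkv4-57, Igkv8-21 and Igkv12-46 all came from replicate 1, and without it these had none. Igkv8-21 (13.4, 14.9 and 16.5 CPM) and Igkv12-46 (12.2, 14.6 and 11.6 CPM) likewise had 2 counts in the first TMRM-Low library and 0 in the others. Igkv12-98 (10.3, 7.34 and 9.10 CPM) was not counted in TMRM-Low and was at least 154-fold higher. Across the 3 loci, 24 of the 39 members called higher had no count in TMRM-Low libraries, with lower bounds of 14.2-fold to 331-fold, 9 had 1 to 3 counts and 6 had more. Igkv14-126 was the exception among the abundant kappa segments called higher, with counts in all libraries. It was at 12, 13.2 and 11.5 against 2.43, 5.12 and 4.25 CPM, and edgeR gave an adjusted p of 0.0332 (log2 fold change 1.64, SE 0.381). It no longer passed when any 1 of the TMRM-High libraries was left out (1.58 to 1.68).

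The 4 kappa members called lower made up most of the kappa reads of TMRM-Low libraries. Igkv4-72 was at 18.3, 31.1 and 16.5 CPM there and had a single count in the 3 TMRM-High libraries together. The ratio was 1210 in favour of TMRM-Low (217 to 47844), and it was the leading kappa segment of every TMRM-Low library, with 26.9% to 39.1% of kappa counts. Igkv12-44 was at 13.5, 12.5 and 12.2 CPM against 2.18, 2.92 and 1.74 CPM in TMRM-High libraries, even within each group (edgeR adjusted p = 0.00537, log2 fold change -2.48, SE 0.364). Igkv15-103 was at 10.6, 7.55 and 13.9 against 2.99, 2.72 and 2.64 CPM (-1.94, SE 0.387, edgeR adjusted p = 0.0190). Igkv6-15 was at 8.27, 10.7 and 8.44 against 0.363, 0.308 and 0.278 CPM (-4.82, SE 0.476, edgeR adjusted p = 0.00075). Igkv12-44 lost its call without TMRM-High replicate 1 (-2.44) or 3 (-2.32), and Igkv15-103 when any 1 of the TMRM-High libraries was left out (-1.99 to -1.90). Igkv1-110 lay above in every TMRM-Low library too (3.30, 6.80 and 2.12 against 1.27, 1.33 and 0.555 CPM), but did not pass (adjusted p = 0.108).

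By family, 22 of 29 family sums were higher in every TMRM-High library, 2 (Ighv6 and Igkv15) in every TMRM-Low library, and 5 overlapped. Among single genes with at least 20 counts the shares without overlap were 17.9% and 15.4%. Many families held 1 member only, so the family counts partly repeat those of the segments. Families with calls both ways were 3, Igkv4, Igkv6 and Igkv12, whose paired sequences are shown above. In Igkv4 the opposite members balanced: 3 of the 6 members were higher and 1 was lower, and the family sum was 22.3, 24.1 and 25.1 CPM in TMRM-High and 18.5, 32.1 and 18.7 CPM in TMRM-Low libraries, which overlap. Igkv12 summed to 24.6, 24.9 and 22.4 against 13.7, 12.5 and 12.2 CPM. Igkv6 summed to 12, 11.7 and 13.5 against 8.33, 11 and 8.44 CPM. Igkv3 and Igkv8 were nearly absent from TMRM-Low libraries: Igkv8 summed to 36.2, 39.5 and 42.2 CPM against 0.926, 0 and 0.0544 CPM, with 5 of 6 members higher, and Igkv3 to 29.3, 30.5 and 27.1 CPM against 0.984, 0 and 0 CPM, with 4 of 5 higher. In Igkv5, 2 of 3 members were higher, while Igkv5-48, not tested, was higher in every TMRM-Low library. No member of Igkv10 entered the test.

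**Figure D4:**
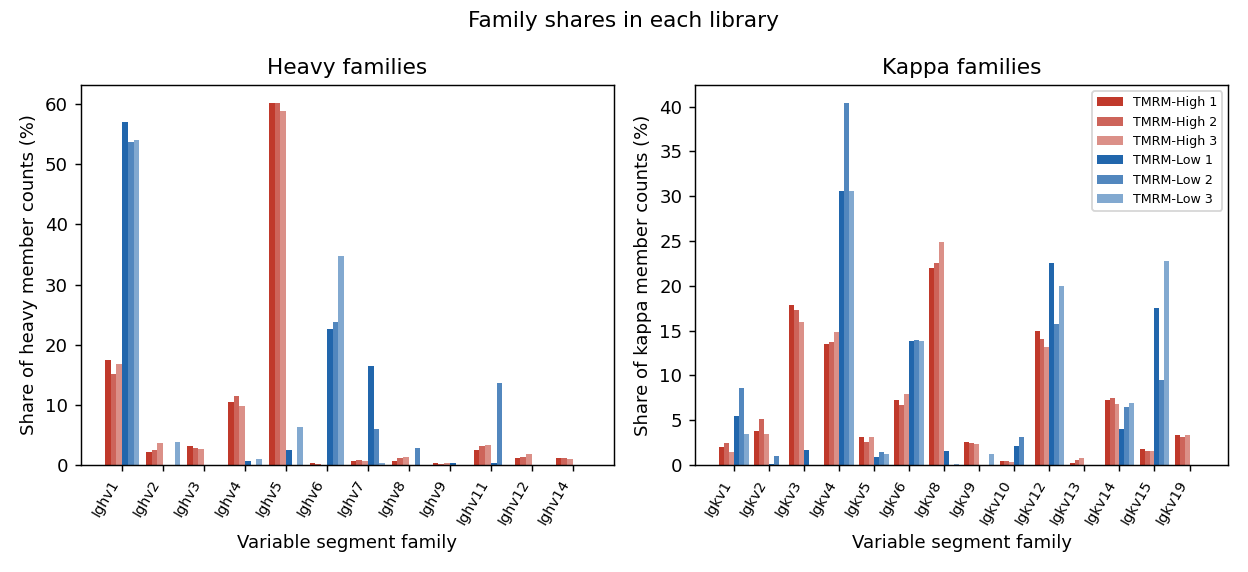
Share of the heavy (left) and kappa (right) member counts held by each variable segment family, with 1 bar for each library. Ighv5 holds 58.8% to 60.2% of heavy counts in TMRM-High and 0% to 6.25% in TMRM-Low libraries, and Igkv4 holds 30.6% to 40.4% of kappa counts in TMRM-Low libraries.

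Position in the locus, which the rule did not use, differed along with the families. Distances are from each segment to the nearest J segment in GENCODE M21 on GRCm38, for heavy segments on chromosome 12 and kappa segments on chromosome 6. The mean distance of heavy member counts was 596 to 621 kb in TMRM-High and 1476 to 1612 kb in TMRM-Low libraries. Segments within 600 kb of a J segment, a limit chosen after the values were seen, held 73.4% to 75.4% of heavy counts in TMRM-High and 5.94% to 19.7% in TMRM-Low libraries. The Ighv5 members lie 168 to 429 kb and the Ighv1 members 1154 to 2570 kb from the J segments, so family and distance cannot be told apart here. For kappa the mean distance was 1073 to 1124 kb in TMRM-High and 1415 to 1527 kb in TMRM-Low libraries, and 42.6% to 44.9% against 13.8% to 16.9% of counts lay within 600 kb. These values were not tested, and they rest on few segments in each group.

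**Figure D5:**
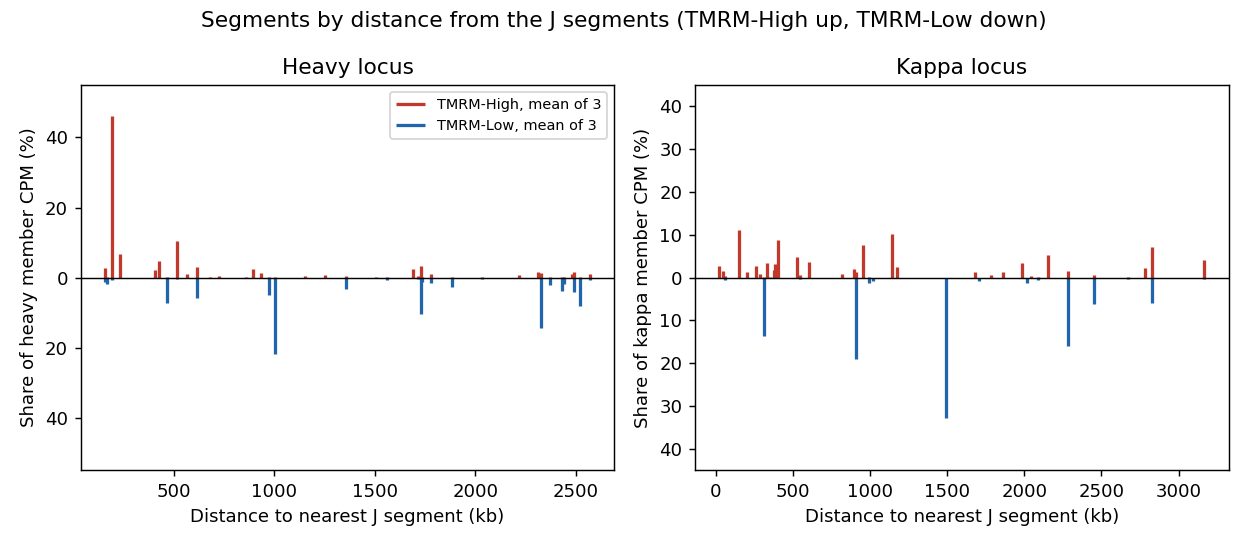
Share of heavy (left) and kappa (right) member CPM held by each segment, against its distance in kb to the nearest J segment, with the mean of the TMRM-High libraries drawn upward and of the TMRM-Low libraries downward. The tall TMRM-High line near the heavy J segments is Ighv5-6, and the tallest TMRM-Low line in the kappa panel is Igkv4-72.

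Constant region genes, which are also transcribed from unjoined loci, gave different ratios to the variable segments in each locus. Counts of heavy variable members per 100 counts of 7 heavy constant genes were 10.4, 10.3 and 10.2 in TMRM-High and 2.94, 5.46 and 3.71 in TMRM-Low libraries. For kappa the ratio to Igkc overlapped between the groups, at 37.2, 39.8 and 38.5 against 34.6, 43.1 and 34.2. Lambda members per 100 counts of Iglc2, the lambda constant gene used here, were 427, 496 and 445 against 32.5, 51.4 and 44.1. Iglv1 is known to be joined mainly to Iglc1 and Iglc3, neither of which was found by symbol among the counted genes. This ratio therefore sets Iglv1 beside a constant gene it rarely uses. Whether Iglc2 counts hold reads of those genes was not checked. None of these ratios is corrected for length or tested. Of 8 tested constant genes 6 were higher, and Igha, of the IgA heavy chain, was lower, at 44.4, 39.7 and 40.2 against 130, 103 and 122 CPM (edgeR adjusted p = 0.00035, log2 fold change -1.51, SE 0.127).

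Some other genes of the B lineage differed as well. Over all tested genes 5.84% were called higher and 5.12% lower. Of 18 genes for components of the pre-B and B cell receptors 12 were higher and 1 was lower, with a summed level of 779 to 789 CPM in TMRM-High and 250.4 to 289 CPM in TMRM-Low libraries. Surrogate light chain genes, which pair with the new heavy chain in pre-B cells, were among the former. Igll1 was at 142 ± 10 CPM against 2.10 ± 1.32 CPM (SD, n = 3, log2 fold change 6.07, SE 0.438, edgeR adjusted p = 0.00020) and Vpreb1 at 79.4 ± 3.47 against 0.5 ± 0.490 CPM. Cd72, of a B cell co-receptor, was lower (29.2 ± 2.61 against 53.7 ± 13.1 CPM). Of 10 tested genes of antibody-secreting cells 3 were called higher, Jchain, Mzb1 and Derl3, and none was called lower. The list did not move in 1 direction. Of the 7 not called, Fkbp11 (9.77 against 19.8 CPM, edgeR adjusted p = 0.0515) and Sdc1 (11.8 against 15.9 CPM) had lower means in TMRM-High. The others of the 7 had higher means there. Tnfrsf17, not tested, had a lower mean as well (0.293 against 0.561 CPM). Of 14 B lineage transcription factor genes 3 were higher (Ebf1, Pax5 and Lef1) and 2 lower (Irf8 and Bcl11a). Their summed level was lower in TMRM-High, at 710.3 to 747 CPM against 831 to 915 CPM in TMRM-Low libraries. Irf8 (173 ± 9.39 against 323 ± 22.3 CPM) and Bcl11a (119 ± 2.90 against 180 ± 16.7 CPM) weighed most in that fall. The 3 called higher were less abundant, Ebf1 the most so at 45.3 ± 0.656 against 1.61 ± 0.57 CPM. The sum therefore does not speak for the list as a whole. Of 12 genes of V(D)J recombination 10 were not called, so this list does not stand out from all genes. Hmgb2 was higher and Dntt, the polymerase that adds bases at the joints, was lower (273 ± 15.2 against 404 ± 19.6 CPM, log2 fold change -0.56, SE 0.0691). Rag1, of the recombinase, was at 4.66 ± 1.08 against 0.366 ± 0.580 CPM and Rag2 at 8.30 ± 1.60 against 5.87 ± 1.94 CPM, and neither passed the test.

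Markers of other blood cells moved as well. Of 8 granulocyte markers 8 were higher, with sums of 13636 to 14040 CPM in TMRM-High and 3227 to 3472 CPM in TMRM-Low libraries, and of 8 erythroid markers 5 were higher (201 to 225 against 49.1 to 66.6 CPM). Of 9 tested T and NK cell markers 1 was higher, Nkg7, and 4 were lower. Their sum ran the other way from most of the calls, at 633 to 644 CPM in TMRM-High against 357 to 452 CPM in TMRM-Low libraries, and Nkg7 made up most of it in TMRM-High (mean 556 against 218 CPM). Of 5 plasmacytoid dendritic cell markers 3 were lower (336 to 359 against 600.4 to 673 CPM), among them Irf8, also counted above as a transcription factor gene. None of these lists had a gene at 0 in a whole group. Their part in the differences of the variable segments was not tested.

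Variable segments of the T cell receptor loci, the other genes built by V(D)J joining, were much scarcer. With the same minimum there were 8, summing to 2.56 to 3.96 CPM in TMRM-High and 3.16 to 10.2 CPM in TMRM-Low libraries, which overlap. Of 2 that entered the test, Trdv4 was lower (4, 0 and 0 against 29, 38 and 32 counts, log2 fold change -4.71, edgeR adjusted p = 0.0352) and Trbv13-2 did not pass.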

How the data were processed

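RNA of 6 libraries of sorted bone marrow cells was sequenced as paired reads of 150 bases after 13 cycles of PCR, per the labels' protocols. The authors deposited estimated counts per Ensembl gene, not scaled to depth. Salmon (listed as 0.03.1), Trim Galore 0.5.0 and GRCm38 are named per the submitters' processing notes, without annotation or settings. The protocol describes neither strand marking nor molecular identifiers, so intervals and floors cover counting error only.

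Estimated counts were rounded to whole numbers. Symbols matched 27728 of 28786 IDs, and positions and transcripts came from GENCODE M21. Genes were kept by filterByExpr, scaled by TMM and tested with edgeR 4.0.16 (glmQLFit, robust, group as the only term) in R 4.3.3, with Benjamini-Hochberg adjustment over 13662 genes. Each SE was taken as the size of the fold change over the square root of edgeR's F. CPM use TMM-scaled library sizes. The test was checked on simulated data. The labels do not say whether the replicate numbers pair the libraries, and the main test did not pair them. The alternatives were other scalings and filters, DESeq2 1.42.0, a replicate block, each library left out, the TMRM-High libraries summed and other member rules.

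Named members were, in each locus, up to 6 called in each direction with the highest mean CPM, the 3 most abundant, and the 4 largest changes in each direction overall; other segments named in the text were chosen after their values were seen. Members and gene lists were chosen with earlier results of these data known.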

Additional observations from a re-analysis of the deposited data

How the results depend on the processing

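The calls of single segments rest on 3 TMRM-High libraries that differ little from each other, and 39 of the 82 members have fewer than 50% of their 31-base words to themselves. Against 39 members called higher and 5 lower, a minimum mean count of 50 left 18 higher and 4 lower. It left 23 members to test, and the 18 were all of those called higher that it kept. Summing the TMRM-High libraries left 2 higher and 1 lower. Leaving out 1 library gave 21 to 45 higher and 2 to 9 lower. DESeq2 called 41 higher and 6 lower. RLE or total-count scaling kept the counts at 39 and 5, leaving out pseudogenes removed no member, and a member minimum of 50 counts gave 38 and 5. The shares of all genes called were not worked out for the minimum mean count of 50 or for these scalings. Their counts of members therefore stand without that comparison, and for the other fits the shares are given above. With the replicate number as a block 36 were higher and 4 lower, and Igkv14-126 and Igkv15-103 lost their calls. The deviations of same-numbered libraries from their group means correlated at -0.014, 0.016 and 0.021, and those of other pairs at -0.027 to 0.012. Values this small cannot tell whether same-numbered libraries share a mouse or a day. None of the 19 tested named members changed direction in any of the 244 fits of a named member under an alternative. All 19 had groups that did not overlap, so rescaling, summing or leaving out libraries could hardly reverse them. Their kept direction is therefore no separate support. The log2 ratios of locus sums ran from 2.75 to 3.06 for heavy (2.86), 1.27 to 1.48 for kappa (1.34) and 4.41 to 4.65 for lambda (4.53).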
